A study of Rattus norvegicus with 6 samples.

Results

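Chemokines are small secreted proteins that direct the movement of leukocytes, and their receptors are the surface proteins that read them. The genes described here are 38 listed chemokines and chemokine receptors, found on the array by the gene name printed beside each probe. By that rule 36 genes were found, with 42 probes, among 35071 distinct names of non-control probes. Cxcl6 and Cxcl16 were not matched by name. Of the 36 genes, 34 exceeded background clearly on 3 or more of the 6 arrays and entered the test, 28 chemokines and 6 receptors. Ccl25 and Ccl28 did not rise above background on any array. The RefSeq transcript of Cxcl6 is on the array under the older name Cxcl5, where its probe was likewise dim on every array. Cxcl16 was not analysed here.

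The samples are total RNA of synovial tissue from the hind ankle joints of male rats, 8 weeks old, with adjuvant arthritis. All rats received 0.1 ml of Freund's complete adjuvant (FCA) intraperitoneally each day for 18 days. The 3 arthritis samples are from rats then given saline, and the 3 triptolide samples are from rats given 0.4 mg/kg of triptolide, a compound from the plant Tripterygium wilfordii, with daily dosing for 14 days in both cases. No group without adjuvant was analysed here, so every difference is between treated and untreated arthritic joints. The labels number the replicates without saying that they are separate animals, so that p-values measure only how far these samples spread, and part of that spread may be technical.

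Chemokines are classed by the spacing of their first cysteines into CXC, CC, XC and CX3C forms, and most signal through G protein-coupled receptors on neutrophils, monocytes, lymphocytes and dendritic cells. In inflamed synovium, CXC chemokines with an ELR motif draw neutrophils, monocyte-directed CC chemokines draw macrophage precursors, and the interferon-induced ligands of CXCR3 draw activated T cells and natural killer cells. Ccl19, Ccl21 and Cxcl13 organise lymphocytes in lymphoid tissue and in lymphoid aggregates of chronically inflamed joints.

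Levels are log2 intensity relative to the array's own 75th percentile, so that 0 is that percentile, and a difference is triptolide minus arthritis on this log2 scale. Levels of different probes depend on the probe and are not compared with each other. Differences were fitted with limma over all 25777 tested probes, and a call is a Benjamini-Hochberg adjusted p under 0.05. Between 59.6% and 65.1% of non-control spots per array were well above background, no spot was saturated, and the number of arrays limits the precision. Arthritis 1 to 3 and triptolide 1 shared slide 1, and triptolide 2 and 3 lay on slide 2. Synovial fibroblast markers were detected for 16 of 16 genes, with means around their 6-array mean of 0.39, -0.42 and 0.51 in arthritis and -0.05, -0.53 and 0.11 with triptolide. That is a difference of -0.32, with 4 of the 16 genes above 0, and its part in the members' values was not tested. In other tissue 2 arrays stood apart. Skeletal muscle markers on arthritis 2 were 7.72 above their mean over the 6 arrays, and on triptolide 2 smooth muscle markers were 2.44 and nerve and Schwann cell markers 2.33 above theirs.

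None of the 34 tested genes was called between the groups. The lowest adjusted p among them was 0.994, and 0.0% of all tested probes (0 of 25777) passed in limma. At an unadjusted p under 0.05 there was 1 member, Cx3cl1, or 2.94% of the members, against 3.22% of all tested probes. Groups did not overlap for 1 member with the higher levels under triptolide, again Cx3cl1, against a background of 4.57%, and for 0 members in the other direction, against 4.04%. These shares are near or below the background. Differences of at least 2-fold were higher with triptolide for 4 members, Ccl19, Cxcl11, Ccl21 and Cxcl10 (background 1.09%), and lower for 0 (background 1.48%). None of those 4 had an unadjusted p under 0.05 or groups free of overlap.

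Differences were above 0 for 24 of the 34 members, against 53.2% of all tested probes, and the median difference was 0.17 over the members and 0.018 over all probes. With normexp background correction 23 members were above 0, while the share of all probes fell to 42.3%. Among the 28 chemokines 21 were above 0 (median 0.25), and among the 6 receptors 3 were (median 0.014). The members' median was 0.53 with slide as a block and ranged from -0.07 to 0.48 with 1 array left out. It was -0.07 without arthritis 2, 0.48 without triptolide 2, 0.027 without triptolide 1 and -0.0038 without triptolide 3.

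**Figure D1:**
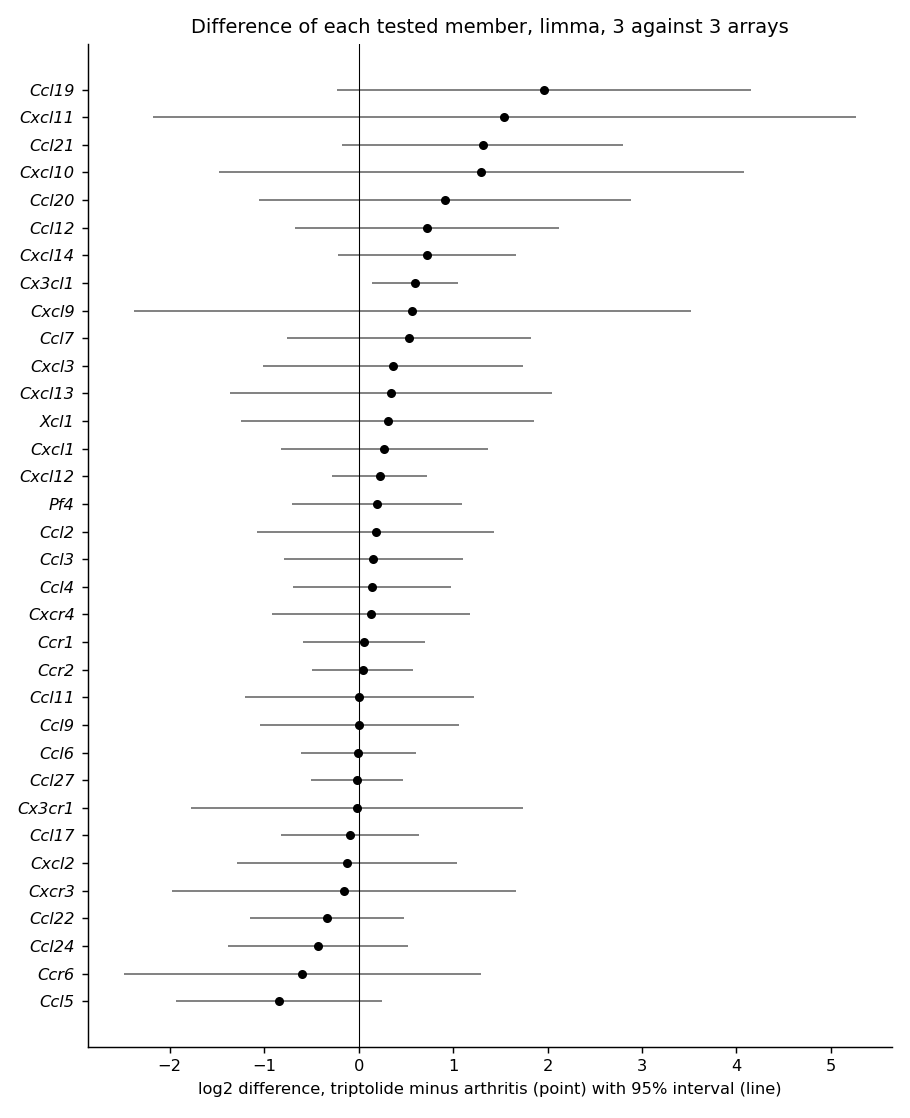
Difference of each tested chemokine and receptor gene (vertical axis) on the log2 scale, triptolide minus arthritis (horizontal axis), with points for the limma estimate from 3 against 3 arrays and lines for its 95% interval. The interval leaves out 0 for Cx3cl1 alone, and the widest interval is that of Cxcl11, from -2.18 to 5.26.

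Cx3cl1 encodes fractalkine, a chemokine made as a membrane-bound stalk on endothelial and epithelial cells and shed as a soluble attractant for cells with the receptor Cx3cr1. Its levels were 2.83, 2.68 and 3.03 on arthritis 1 to 3 and 3.68, 3.22 and 3.42 on triptolide 1 to 3. Every triptolide array lay above every arthritis array, by 0.19 at the closest. The means were 2.84 ± 0.18 (SD, n = 3) and 3.44 ± 0.23 (SD, n = 3), a difference of 0.60 (SE 0.19, 95% interval 0.15 to 1.05), or 1.51-fold, with a limma unadjusted p of 0.0174 and an adjusted p of 0.994. A dimmer probe of the same transcript, at chr19:10667691-10667750 against chr19:10667029-10667088 for the brighter one (rn4), gave 0.48 (SE 0.23, limma unadjusted p = 0.082) with groups that overlapped. Among 18 alternative settings the difference of Cx3cl1 stayed above 0, from 0.44 to 0.84. Blood endothelium markers, from a cell type that makes fractalkine, had differences above 0 for 12 of 13 tested genes, and their mean over genes ranged from -0.26 to -0.0031 in arthritis and from -0.28 to 0.67 with triptolide, and their part in the result was not tested. The highest blood endothelium mean was on triptolide 2, which had the lowest Cx3cl1 level of the triptolide arrays.

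Its RefSeq promoter (GRCr8, chr19:10242771-10243070, minus strand, 250 bases before to 50 after the start) is shown as that of the 1 member whose groups did not overlap. Capitals mark a TATAAA match, 78 bases before the start, and none of the other motifs searched below is in this window.
Cx3cl1: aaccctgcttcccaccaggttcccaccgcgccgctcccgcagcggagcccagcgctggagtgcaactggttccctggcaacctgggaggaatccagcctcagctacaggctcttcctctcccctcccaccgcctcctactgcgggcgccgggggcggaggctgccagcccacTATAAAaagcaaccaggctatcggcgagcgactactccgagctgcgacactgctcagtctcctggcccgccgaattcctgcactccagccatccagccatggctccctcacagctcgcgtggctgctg

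Cxcl9, Cxcl10 and Cxcl11 are the ligands of CXCR3, a receptor of activated T cells and natural killer cells, and are induced by interferons. All had wide values under triptolide. Cxcl10 stood at 1.59, 2.52 and 2.52 on arthritis 1 to 3 and at 5.77, 0.97 and 3.80 on triptolide 1 to 3. Triptolide 1 and 3 lay above all arthritis arrays and triptolide 2 below all of them. Cxcl9 stood at 1.08, 2.07 and 1.72 on the arthritis arrays and at 3.99, -0.76 and 3.36 on the triptolide arrays. Cxcl11 stood at -1.07, 0.39 and -0.33 and at 4.19, -2.25 and 1.68. The arrays came in the identical order for all 3 ligands, with triptolide 1 highest, then triptolide 3, arthritis 2, arthritis 3, arthritis 1 and triptolide 2, although arthritis 2 and 3 were all but equal for Cxcl10. Between the highest and the lowest array, both treated with triptolide, the level differed 26.9-fold for Cxcl9, 27.9-fold for Cxcl10 and 86.6-fold for Cxcl11.

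The differences between groups were smaller than this spread. They were 0.57 (SE 1.22) for Cxcl9, 1.30 (SE 1.15) for Cxcl10 and 1.54 (SE 1.54) for Cxcl11, with limma unadjusted p of 0.656, 0.298 and 0.353. SDs over the arthritis arrays were 0.50, 0.54 and 0.73, and over the triptolide arrays 2.58, 2.42 and 3.24, in the same gene order. Single arrays decided the size. Without triptolide 1 the differences were -0.33, 0.17 and 0.05, and without triptolide 2 they were 2.05, 2.57 and 3.27. With slide as a block, which leaves triptolide 1 as the treated side, they were 2.36, 3.56 and 4.52. The authors' deposited table of log2 values, which lists 167 rows, holds Cxcl11 as its 1 member, with values of 7.27, 8.69 and 8.00 on the arthritis arrays and 12.5, 6.002 and 9.99 on the triptolide arrays.

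Interferon gamma and Irf1, from the list of chemokine inducers, are given beside these ligands. Interferon gamma itself (Ifng) stood at -4.58, -4.33 and -3.43 in arthritis and at -0.85, -5.90 and -2.77 with triptolide. It was well above background on 3 arthritis and 2 triptolide arrays. Its value on triptolide 2 lay below that array's lowest signal well above background, -4.43. On arthritis 1 and 2 its values were close to the lowest such signals, -4.83 and -4.72. The interferon-induced factor Irf1 stood at -1.07, -0.62 and -0.54 and at 1.76, -1.56 and 0.23. Both had triptolide 1 highest, triptolide 3 next and triptolide 2 lowest, but arthritis 3 came before arthritis 2, unlike in the ligands' order. They were named after their values were seen, and their part in the ligands' levels was not tested. The receptor Cxcr3 stood at -1.20, -2.48 and -1.17 in arthritis and at -0.95, -3.41 and -0.95 with triptolide, a difference of -0.15 (SE 0.75). Receptor and ligands thus shared triptolide 2 as their lowest array. Arthritis 2 was the second lowest for Cxcr3 and the highest arthritis array for the ligands, though all but equal to arthritis 3 for Cxcl10. T and NK cell markers, of which 17 of 19 were tested and Cd28 and Ncr1 were above background on no array, had means of -0.66 on arthritis 2 and -0.91 on triptolide 2, within ranges of -0.66 to 0.37 in arthritis and -0.91 to 0.53 with triptolide. Of the 17, 11 had differences above 0, and their part in these values was not tested. In whole tissue, fewer cells of a type and less RNA per cell cannot be told apart.

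**Figure D2:**
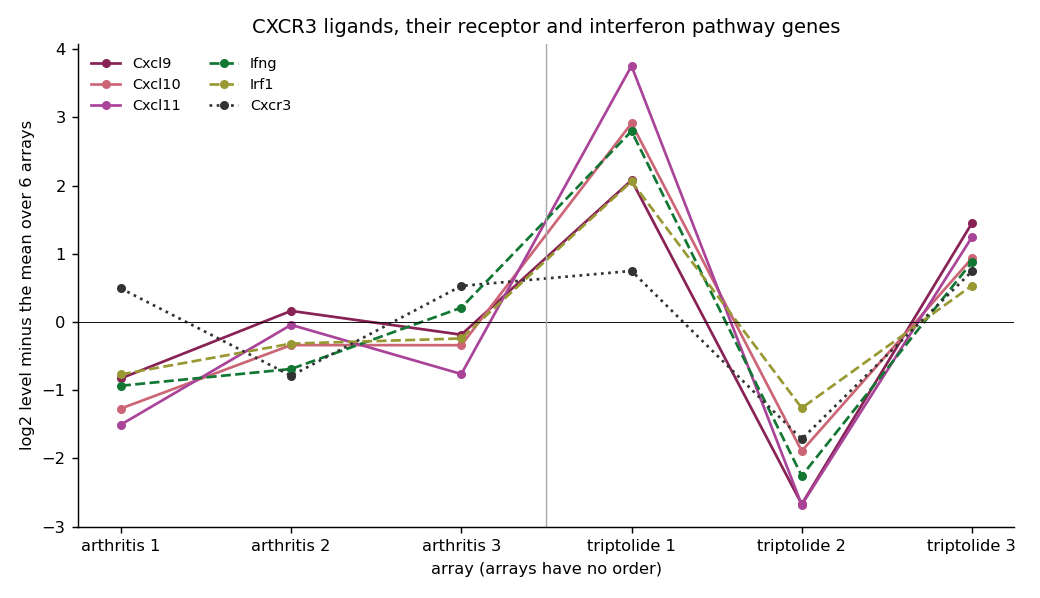
Log2 level on each of the 6 arrays (horizontal axis, arrays in no order, lines join a gene's points) minus the gene's mean over them (vertical axis), for the CXCR3 ligands (solid lines), Ifng and Irf1 (dashed) and Cxcr3 (dotted). All 6 genes peak on triptolide 1 and are lowest on triptolide 2, where Ifng was not well above background. Cxcr3 is also low on arthritis 2.

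The 3 ligand genes lie side by side, within 36.7 kb on chromosome 14 by their probes (rn4). Their RefSeq promoters (GRCr8) are shown because the genes moved together from array to array. They are Cxcl9 at chr14:16006916-16007215, plus strand, Cxcl10 at chr14:15988816-15989115, plus strand, and Cxcl11 at chr14:15973478-15973777, plus strand, each 300 bases with the start after base 250. Capitals mark matches, on either strand, to the interferon-stimulated response element core (GAAA, any 2 bases, GAAA), the gamma-activated site TTCNNNGAA, a kB site in a first form (GGG, any 2 bases, TTTCC) and a second form (GGG, any 3 bases, TTCC), and TATAAA.
Cxcl9: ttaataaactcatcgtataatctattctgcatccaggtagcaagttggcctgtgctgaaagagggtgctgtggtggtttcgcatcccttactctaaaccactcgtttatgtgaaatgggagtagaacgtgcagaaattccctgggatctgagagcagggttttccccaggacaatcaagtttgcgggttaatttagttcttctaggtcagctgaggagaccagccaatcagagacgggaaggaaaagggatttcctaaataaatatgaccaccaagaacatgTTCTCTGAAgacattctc
Cxcl10: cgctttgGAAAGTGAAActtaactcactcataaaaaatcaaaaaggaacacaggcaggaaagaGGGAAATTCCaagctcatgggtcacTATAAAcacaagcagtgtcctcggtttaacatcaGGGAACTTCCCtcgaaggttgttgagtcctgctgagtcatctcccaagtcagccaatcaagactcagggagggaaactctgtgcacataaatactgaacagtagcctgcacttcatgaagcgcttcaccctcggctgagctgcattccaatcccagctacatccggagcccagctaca
Cxcl11: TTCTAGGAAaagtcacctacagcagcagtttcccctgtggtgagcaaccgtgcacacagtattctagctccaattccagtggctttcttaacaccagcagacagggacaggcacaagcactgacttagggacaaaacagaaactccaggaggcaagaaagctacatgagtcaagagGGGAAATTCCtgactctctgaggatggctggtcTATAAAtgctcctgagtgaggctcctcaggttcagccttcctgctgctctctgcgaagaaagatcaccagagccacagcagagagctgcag

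GAAAGTGAAA, the response element match of Cxcl10, lies 243 bases before the start. Among 33469 RefSeq rat promoters of this length 3.92% hold the response element core, and so do 2 of the 31 members whose promoter was supplied, Cxcl10 and Ccl19. TTCNNNGAA is in 8.87% of all promoters and in 6 members (Cxcl9, Cxcl11, Ccl7, Ccl17, Ccl24 and Ccr6). The second kB form, added with TATAAA after the first search, is in 5.37% of all promoters and in 9 members, and TATAAA is in 14.2% and in 10. In Cxcl10 the capitals GGGAACTTCCC hold 2 overlapping matches on opposite strands. Cxcl9, Cxcl10 and Cxcl11, which shared an array order, thus hold different sets of these motifs in this window. Cxcl10 and Cxcl11 share the second kB form and TATAAA, and Cxcl9 and Cxcl11 share TTCNNNGAA. Matches describe letters and do not show that a factor binds.

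Neighbouring paralogues can be confused by a probe, so 2 of the 60-base probes are shown, with no base in capitals. They are those of Cxcl9 (rn4, chr14:17288831-17288890, plus strand) and Cxcl11 (rn4, chr14:17252192-17252251, plus strand).
Cxcl9: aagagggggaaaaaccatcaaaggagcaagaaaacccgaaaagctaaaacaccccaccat
Cxcl11: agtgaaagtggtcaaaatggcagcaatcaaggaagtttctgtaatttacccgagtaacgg
Ccl27 with Iqub and Cxcr4 with Fam46b shared 16 bases between their probes. No other member probe shared a run of 15 or more bases with a probe of another gene on the array. Probes were compared with probes alone and not with the transcripts of neighbouring genes. Whether a probe also reads a paralogue was therefore not tested.

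ELR chemokines of the CXC class attract neutrophils through the receptors Cxcr1 and Cxcr2. Cxcl1 stood at 0.82, 0.29 and 1.09 in arthritis and at 1.66, 0.05 and 1.30 with triptolide, a difference of 0.27 (SE 0.45). Cxcl2 stood at 0.43, 0.08 and 1.21 and at 0.90, -0.51 and 0.95, a difference of -0.13 (SE 0.48). Cxcl3 stood at -1.79, -2.43 and -1.63 and at -0.93, -2.89 and -0.94, a difference of 0.36 (SE 0.57). Triptolide 2 was lowest and the groups overlapped for all 3. Without triptolide 1 the differences were -0.06, -0.35 and 0.035, and without triptolide 2 they were 0.75, 0.35 and 1.02. A second probe of Cxcl3, mapped elsewhere in the same cluster, was dim on every array. Of 17 listed neutrophil markers 10 were tested, with Elane, Mmp8, Fpr1 and Ngp above background on no array. All 10 had differences above 0, with means of -0.55 to 0.24 in arthritis and -0.47 to 0.74 with triptolide, and the lowest values on arthritis 2 and triptolide 2. Their part in the result was not tested.

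Because the first kB form is in 1.53% of all promoters and in 5 of 31 members, 3 of them of the ELR class (Cxcl1, Cxcl2, Cxcl6, with Ccl9 and Ccl20), the promoter of Cxcl1 is shown (GRCr8, chr14:17479272-17479571, minus strand) with its 2 matches in capitals. They begin 102 and 84 bases before the start, the first on the opposite strand, and the second run in capitals is a base longer since a match to the second form on the opposite strand overlaps it.
Cxcl1: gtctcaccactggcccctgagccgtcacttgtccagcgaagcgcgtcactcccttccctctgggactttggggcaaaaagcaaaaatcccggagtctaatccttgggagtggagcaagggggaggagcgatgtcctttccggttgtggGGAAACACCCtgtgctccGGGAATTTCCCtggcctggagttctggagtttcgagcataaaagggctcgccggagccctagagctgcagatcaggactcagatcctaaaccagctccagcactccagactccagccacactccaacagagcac
A looser kB form (GGG, any 5 bases, CC), not in capitals here, is in 47.3% of all promoters and in 18 members. Cxcl9, Cxcl10 and Cxcl11 are among the 18.

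The groups overlapped for each of the remaining CXC members. Cxcl12, the stromal attractant read by Cxcr4, stood at 6.11, 5.56 and 6.15 in arthritis and at 6.06, 6.11 and 6.31 with triptolide. Its triptolide SD of 0.14 was the smallest among the tested members, and the difference was 0.22 (SE 0.21), with 0.08 (SE 0.22) on a second probe. Cxcl14, which attracts monocytes and dendritic cells, stood at 4.71, 4.31 and 5.57 and at 5.22, 6.11 and 5.42. Arthritis 3 overlapped the triptolide arrays, and the difference was 0.72 (SE 0.39, limma unadjusted p = 0.11). It was 0.18 without arthritis 2 and triptolide 2, which were the lowest and the highest array. Cxcl13, the B cell attractant, stood at 4.01, 2.67 and 4.98 and at 4.83, 3.12 and 4.75, a difference of 0.34 (SE 0.71). Pf4, platelet factor 4, stood at 6.10, 4.94 and 6.10 and at 5.84, 5.59 and 6.29, a difference of 0.19 (SE 0.37). Of 10 platelet markers 3 were tested, and Gp1ba, Gp5, Ppbp and Gata1 were above background on no array.

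**Figure D3:**
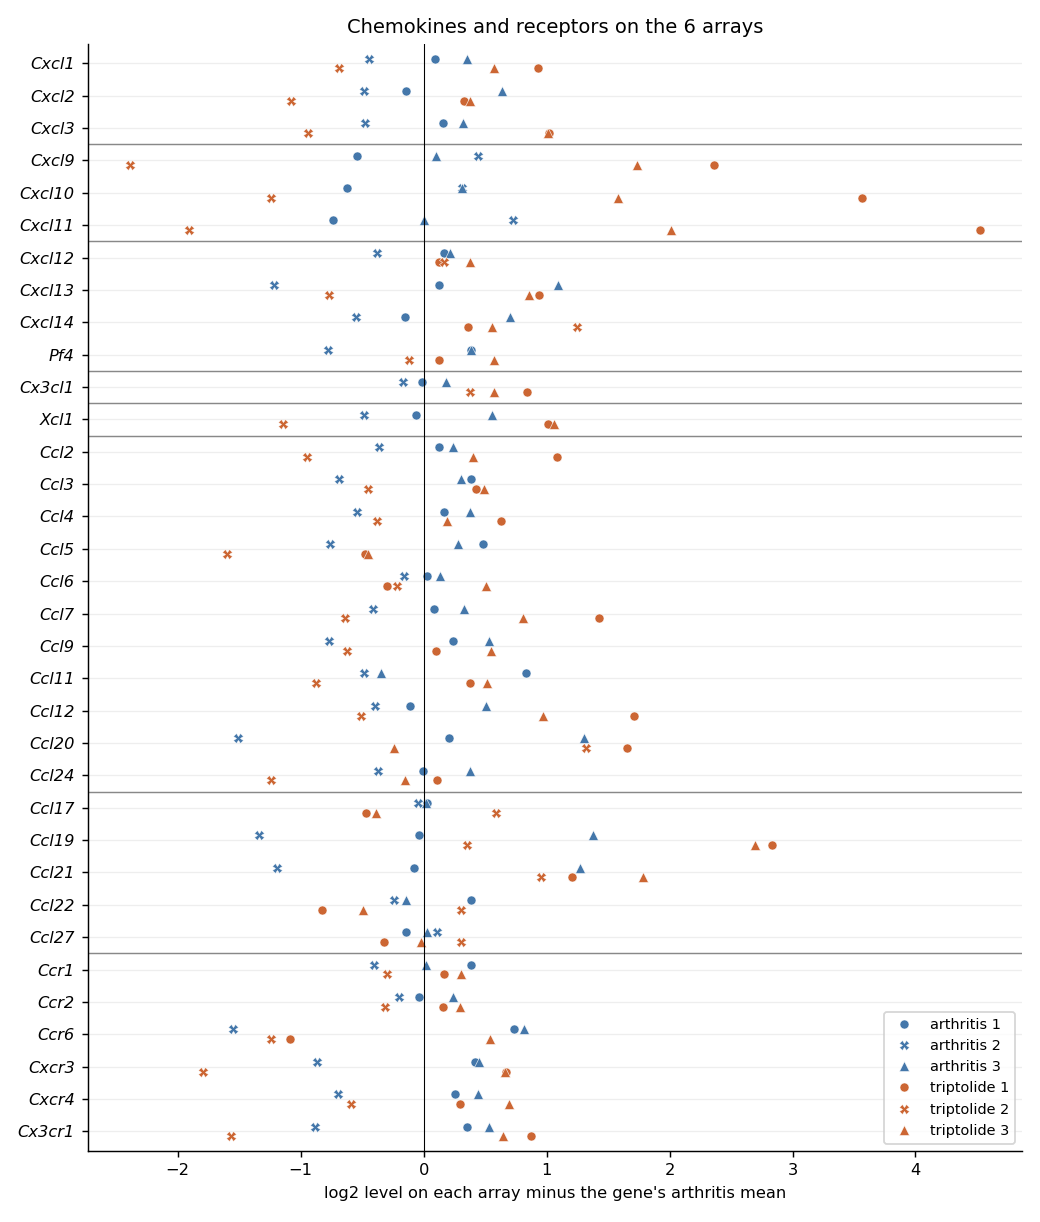
Log2 level of each tested gene (rows, by class) on each of the 6 arrays minus the gene's arthritis mean (horizontal axis), with blue for arthritis, orange for triptolide, and circles, crosses and triangles for replicates 1, 2 and 3. Triptolide 2 (orange crosses) is the lowest triptolide array for 27 of 34 genes and arthritis 2 (blue crosses) the lowest arthritis array for 30 of 34.

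Inflammatory CC chemokines attract monocytes, eosinophils, T cells and dendritic cells. Of 11 tested, 8 had values above 0, with a median of 0.14 and 0 members past an unadjusted p of 0.05. Ccl2, the main attractant of Ccr2-bearing monocytes, stood at 5.48, 4.99 and 5.60 in arthritis and at 6.44, 4.41 and 5.76 with triptolide. The triptolide arrays lay on both sides of the arthritis arrays, and the difference was 0.18 (SE 0.52). Its probe is printed on each array as 10 spots, 1 of which was left out on arthritis 3 as an outlier, and the SD between spots within an array was 0.07 to 0.11, against 0.32 between arthritis arrays and 1.04 between triptolide arrays.

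Ccl7 and Ccl12, neighbours of Ccl2 that also attract monocytes, had the array order of Ccl2. Ccl12 stood at 2.05, 1.77 and 2.67 and at 3.88, 1.65 and 3.13, a difference of 0.72 (SE 0.58, limma unadjusted p = 0.256). Ccl7 stood at 3.48, 2.99 and 3.72 and at 4.82, 2.76 and 4.21, a difference of 0.53 (SE 0.53), with 0.47 (SE 0.54) on a second probe. Both stayed above 0 in every setting tried, Ccl12 from 0.23 without triptolide 1 to 1.71 with slide as a block. Ccl11, the eosinophil attractant eotaxin, lies in the same cluster and did not share this order, with arthritis 1 highest. It stood at -2.12, -3.43 and -3.30 and at -2.57, -3.82 and -2.43, a difference of 0.01 (SE 0.50) that was below 0 under median scaling, quantile normalization and normexp.

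Ccl5, or RANTES, an attractant of T cells and monocytes made by activated T cells among others, had the most negative difference of the members. It stood at 3.05, 1.80 and 2.84 in arthritis and at 2.09, 0.96 and 2.11 with triptolide. Arthritis 2 lay below triptolide 1 and 3, so the groups overlapped. The difference was -0.84 (SE 0.45, 95% interval -1.93 to 0.25, limma unadjusted p = 0.108), a level 1.79-fold higher in arthritis. It was below 0 in every setting, from -1.22 without arthritis 2 to -0.46 without triptolide 2. Within arthritis 1 and 3 and triptolide 1 and 3 it was -0.84 (SE 0.13, limma adjusted p = 0.262). T and NK cell markers had means of 0.21, -0.66 and 0.37 on arthritis 1 to 3 and 0.46, -0.91 and 0.53 on triptolide 1 to 3. They were lowest on triptolide 2 and next on arthritis 2, as Ccl5 was, and their part in its level was not tested. The probe that gave the value is shown without capitals (rn4, chr10:71606089-71609018, minus strand), and its 60 bases are placed over 2930 bases of genome, across at least 1 intron.
Ccl5: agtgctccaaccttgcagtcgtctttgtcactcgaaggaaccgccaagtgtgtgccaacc

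Ccl3 and Ccl4, macrophage inflammatory proteins, lie in the cluster of Ccl5 on chromosome 10. Ccl3 stood at 4.79, 3.71 and 4.70 and at 4.83, 3.95 and 4.89, a difference of 0.15 (SE 0.39). Ccl4 stood at 1.35, 0.64 and 1.56 and at 1.81, 0.80 and 1.37, a difference of 0.14 (SE 0.35). Arthritis 2 and triptolide 2 were the low arrays for both. Ccl6 and Ccl9 are rodent genes of the same cluster. Ccl6 stood at 3.36, 3.17 and 3.46 and at 3.03, 3.11 and 3.83, a difference of -0.0036 (SE 0.25). Ccl9 stood at 0.77, -0.24 and 1.06 and at 0.63, -0.10 and 1.08, a difference of 0.01 (SE 0.44) that was below 0 under median scaling and normexp. The 5 genes of this cluster therefore ran from -0.84 to 0.15.

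Ccl20, the ligand of Ccr6 and an attractant of Th17 cells, stood at -3.89, -5.61 and -2.80 in arthritis, where it was well above background on 2 of 3 arrays, and at -2.44, -2.78 and -4.34 with triptolide. Its difference of 0.91 (SE 0.81, limma unadjusted p = 0.302) was -0.05 without arthritis 2 and triptolide 2. Ccl24, an eosinophil attractant, stood at -1.93, -2.30 and -1.55 and at -1.82, -3.17 and -2.08, a difference of -0.43 (SE 0.39). Of 6 eosinophil markers 2 were tested, and Epx and Prg3 were above background on no array. Xcl1, the XC chemokine of activated T and NK cells, stood at -1.55, -1.97 and -0.93 and at -0.47, -2.62 and -0.42, a difference of 0.31 (SE 0.64) that was 1.04 without triptolide 2.

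Ccl19 and Ccl21, the ligands of Ccr7 that guide dendritic cells and naive T cells, had 2 of the 3 largest differences among the members. Ccl19 stood at 2.45, 1.15 and 3.87 in arthritis and at 5.33, 2.84 and 5.19 with triptolide. Triptolide 2 lay below arthritis 3, so the groups overlapped, while triptolide 1 and 3 lay above all arthritis arrays. The means were 2.49 ± 1.36 (SD, n = 3) and 4.45 ± 1.40 (SD, n = 3), a difference of 1.96 (SE 0.91, 95% interval -0.23 to 4.16) or 3.90-fold, with a limma unadjusted p of 0.0715. Ccl21 stood at 3.50, 2.39 and 4.85 and at 4.78, 4.54 and 5.37. Arthritis 3 lay among the triptolide arrays, and the difference was 1.32 (SE 0.61, limma unadjusted p = 0.074) or 2.49-fold. Both were above 0 in every setting, Ccl19 from 1.29 without arthritis 2 to 2.84 with slide as a block and Ccl21 from 0.72 without arthritis 2 to 1.95 without arthritis 3.

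Ccl19 and Ccl21 were among the 14 of 34 members with their lowest level on arthritis 2 (41.2%, against 36.9% of all tested probes). Triptolide 2 was the lowest array for 16 members (47.1%, against 24.3% of all tested probes). Lymphatic endothelium, a source of Ccl21, was read by 3 tested markers of 5, with means of -0.39, -0.64 and 0.39 on arthritis 1 to 3 and 0.01, 0.08 and 0.54 on triptolide 1 to 3. Its arthritis range of -0.64 to 0.39 overlapped the triptolide range of 0.01 to 0.54, 2 of the 3 had differences above 0, and the defining marker Prox1 was above background on no array. Dendritic cell markers, 4 tested of 9, had means of -0.77 to 0.21 in arthritis and -0.43 to 0.51 with triptolide, all 4 with differences above 0, and with Lamp3, Xcr1 and Cd209a above background on no array. The part of either cell type in the result was not tested. Ccr7, the receptor of both chemokines, stood at -3.97, -3.87 and -3.83 and at -2.99, -4.81 and -3.77, a difference of 0.028 (SE 0.44). The promoter of Ccl19 (GRCr8, chr5:61761115-61761414, minus strand) is shown since it holds, in capitals, the same GAAAGTGAAA as that of Cxcl10, here 51 bases before the start.
Ccl19: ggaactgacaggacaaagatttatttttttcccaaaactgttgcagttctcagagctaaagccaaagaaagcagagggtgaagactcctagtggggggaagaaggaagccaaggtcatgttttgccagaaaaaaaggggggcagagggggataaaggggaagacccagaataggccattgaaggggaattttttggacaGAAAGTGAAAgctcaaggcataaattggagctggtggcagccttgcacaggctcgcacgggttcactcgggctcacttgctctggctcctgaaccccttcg

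Ccl17 and Ccl22, the ligands of Ccr4 made by dendritic cells and macrophages, ran against the common pattern. Ccl17 stood at 0.89, 0.82 and 0.89 in arthritis, with the smallest SD of any member (0.04), and at 0.40, 1.46 and 0.48 with triptolide. Triptolide 2 was the highest array and triptolide 1 and 3 the lowest. The difference was -0.09 (SE 0.30), and -0.43 without triptolide 2. Ccl22 stood at 2.70, 2.07 and 2.17 and at 1.49, 2.62 and 1.82, a difference of -0.34 (SE 0.34), and it was below 0 in every setting. A second probe gave -0.51 (SE 0.28). On that probe triptolide 2 (-1.21) and triptolide 3 (-1.24) were all but equal, and arthritis 2 (-1.33) was the lowest arthritis array. Ccl27, known as a skin chemokine, stood at -0.45, -0.20 and -0.28 and at -0.63, -0.01 and -0.34, a difference of -0.01 (SE 0.20), and was also highest on triptolide 2. Its sign turned under both normexp settings. With Cxcl14 these 3 were among the 4 members for which triptolide 2 was the highest triptolide array.

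The 6 member receptors had differences from -0.59 to 0.13 with 0 members past an unadjusted p of 0.05 and overlapping groups throughout. Ccr1, a receptor of Ccl3 and Ccl5, stood at 0.96, 0.18 and 0.60 and at 0.75, 0.28 and 0.88, a difference of 0.06 (SE 0.27). Ccr2, the monocyte receptor of Ccl2, stood at 0.09, -0.07 and 0.37 and at 0.28, -0.18 and 0.43, a difference of 0.05 (SE 0.22), which limits it to -0.49 to 0.58 at 95%. Cxcr4, the receptor of Cxcl12, stood at 1.12, 0.16 and 1.31 and at 1.16, 0.27 and 1.55, a difference of 0.13 (SE 0.43), with 0.18 (SE 0.42) on a second probe. Cx3cr1, the fractalkine receptor, stood at -1.99, -3.22 and -1.81 and at -1.47, -3.91 and -1.70, a difference of -0.02 (SE 0.73), while its ligand was the member with the smallest p. Ccr6, the receptor of Ccl20, stood at -4.00, -6.29 and -3.92 and at -5.83, -5.98 and -4.20, and was well above background on 2 arthritis arrays and 1 triptolide array. Its difference was -0.59 (SE 0.78). Under both normexp settings the signs of Ccr2 and Cx3cr1 turned.

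Macrophage and monocyte markers, cells that carry Ccr1, Ccr2 and Cx3cr1, were tested for 16 of 19 genes and lacked Marco. Their means were 0.01, -0.39 and 0.24 on arthritis 1 to 3 and 0.25, -0.49 and 0.38 on triptolide 1 to 3, with differences above 0 for 10 of 16 genes. Like the receptors, they were lowest on arthritis 2 and triptolide 2, and their part in the receptors' values was not tested.

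Other genes of the pathway came from fixed lists, and 0 of their tested genes passed an adjusted or an unadjusted p of 0.05 in limma by the brightest probe. By a dimmer probe, Gng2, a G protein gamma subunit named after its values were seen, had a difference of 0.84 (SE 0.26, limma unadjusted p = 0.017, adjusted p = 0.994) without overlap of the groups, against 0.29 (SE 0.40) on its brightest probe and 0.40 (SE 0.35) on a further one. Of 12 other chemokine receptors on the array 4 were tested. Cxcr1, a neutrophil receptor, had a difference of 0.10 (SE 0.77) and Cxcr6, the receptor of Cxcl16, one of -0.10 (SE 0.50). Cxcr2, Ccr3, Ccr4, Ccr8, Ccr10, Cxcr5 and Xcr1 were above background on no array. Ccr9 was well above background on 2 arthritis arrays and no triptolide array, and was too dim for a lower bound on its fold. Atypical receptors are a class named for binding chemokines without the usual G protein signal. All 4 genes listed in it that were tested were above 0, Cxcr7 and Ccbp2 barely (Ccrl2 0.71, SE 0.43, Ccrl1 0.14, SE 0.20, Cxcr7 0.0055, SE 0.22, and Ccbp2 0.0019, SE 0.39). The 1 tested further chemokine, Cxcl17, differed by 0.07 (SE 0.31).

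Of 28 tested genes that pass on chemokine receptor signals, 22 were above 0 with a median of 0.17. The smallest p values there belonged to Pik3cd, a phosphoinositide 3-kinase subunit (0.36, SE 0.22, with 0.13, SE 0.23, on a dimmer probe), Ptk2b, a focal adhesion kinase relative (0.52, SE 0.32), and Plcb2, a phospholipase C (0.43, SE 0.27). All 12 tested genes of cytokines and factors that induce chemokines were above 0, with a median of 0.44 and 0 past an unadjusted p of 0.05. Among them Nfkb2 and Rela, subunits of NF-kB, differed by 0.39 (SE 0.22) and 0.31 (SE 0.18), Stat6, which signals for interleukin 4, by 0.32 (SE 0.22), and Tnf by 0.54 (SE 0.79). Dimmer probes gave 0.43 (SE 0.22, limma unadjusted p = 0.088) for Nfkb2, without overlap of the groups, and 0.20 (SE 0.18) for Rela. The mean of the 12 was 1.17 above its 6-array mean on triptolide 1 and 0.79 below it, at -0.79, on triptolide 2. Il1a was well above background on 2 arthritis arrays and no triptolide array. For the means of these arrays that gives a lower bound of 1.30-fold, higher in arthritis, without a test. Its levels on arthritis 2 (-4.54) and triptolide 1 (-4.56) were all but equal. Il17a, Il4 and Lta were above background on no array.

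**Figure D4:**
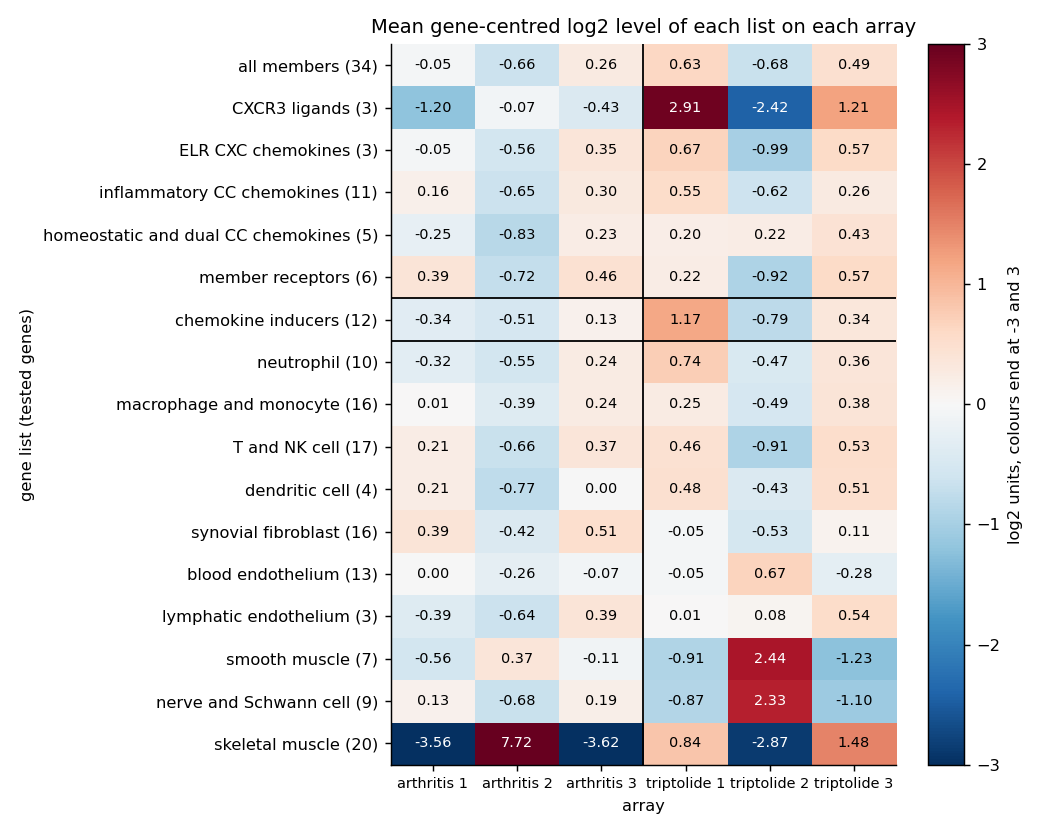
Mean gene-centred log2 level (colour and number, log2 units, colours ending at -3 and 3) of each gene list (rows, with its number of tested genes) on each of the 6 arrays (columns), for member classes above the first line, chemokine inducers below it, and cell type markers at the bottom. All members together stand at -0.66 on arthritis 2 and -0.68 on triptolide 2, and skeletal muscle at 7.72 on arthritis 2.

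Across arrays the members moved more than most genes. Their median SD was 0.53 over the arthritis arrays and 0.74 over the triptolide arrays, against 0.25 in both groups over all tested probes. The SD was larger with triptolide for 23 of 34 members, against 51.1% of all probes. It exceeded 1 for 12 members with triptolide and 5 in arthritis, against 1287 and 1232 of all 25777 tested probes. Arthritis 2 was the lowest arthritis array for 30 of 34 members (58.4% of all probes) and triptolide 2 the lowest triptolide array for 27 of 34 (43.8% of all probes). Triptolide 1 and 3 were the 2 highest arrays, in that order, for 12 members (8.04% of all probes), among them the CXCR3 ligands, Cxcl1, Cxcl3, Ccl2, Ccl7, Ccl12, Ccl19 and Cx3cl1. These are descriptions of the same 6 arrays, over genes that are not independent.

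**Figure D5:**
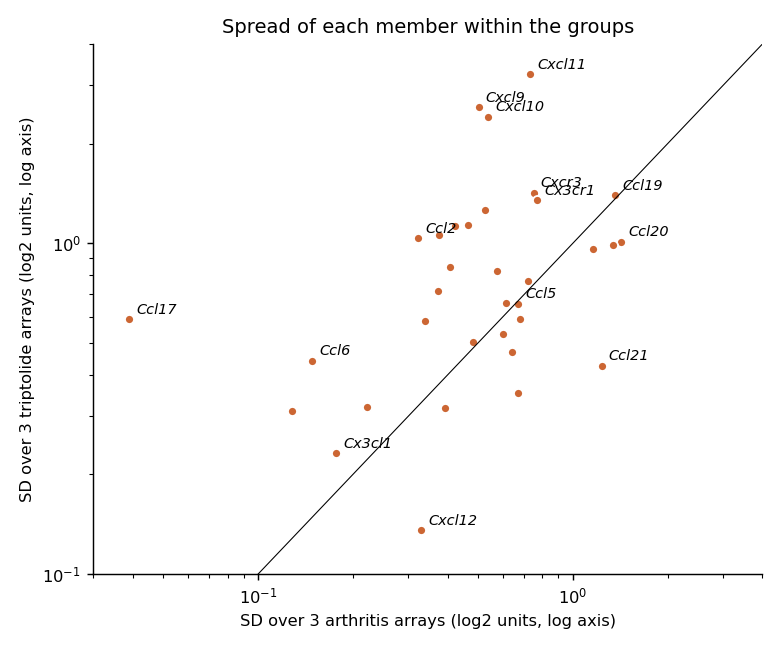
SD of the log2 level over the 3 triptolide arrays (vertical, log axis) against that over the 3 arthritis arrays (horizontal, log axis), a point per tested gene, with the line of equal SD. Cxcl9, Cxcl10 and Cxcl11 have the largest triptolide SDs, at 2.58, 2.42 and 3.24, and Ccl21 and Cxcl12 lie below the line.

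A second complete order, triptolide 1, triptolide 3, arthritis 3, arthritis 1, arthritis 2 and triptolide 2, was shared by Cxcl1, Cxcl3, Ccl2, Ccl7, Ccl12, Cxcr3 and Cx3cr1. These 7 members were 20.6% of those tested, against 1.79% of all probes, and the inducers Tnf, Ltb and Nfkb1 had it too. Tnf was well above background on only 2 arrays of each group. The order of the CXCR3 ligands was found for 8.82% of members, which are those ligands alone, and 0.322% of all probes, including Cxcr7 and Ccbp2. Both orders were picked from the members' own values, so their shares among members are not a test. The orders differ in the place of arthritis 2. It lies above both other arthritis arrays for the CXCR3 ligands, though all but equal to arthritis 3 for Cxcl10, and below them for the 7. That array is high in skeletal muscle markers, whose part in the orders was not tested.

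By position the chemokine genes fall into clusters, and the estimated differences varied within them. Whether genes of a cluster differed from each other was not tested. On chromosome 10 the 4 tested genes from Ccl2 to Ccl12, over 64.5 kb, had differences from 0.01 to 0.72, and the 5 from Ccl5 to Ccl4, over 154.2 kb, had differences from -0.84 to 0.15. On chromosome 14, Cxcl2, Cxcl1, Cxcl3 and Pf4 lay within 135.4 kb and ran from -0.13 to 0.36. On chromosome 19, Ccl17, Cx3cl1 and Ccl22 lay within 57.4 kb, with Cx3cl1 at 0.60 and both neighbours below 0. On chromosome 5, Ccl27, Ccl19 and Ccl21 lay within 39.4 kb, with Ccl27 at -0.01 beside the 2 largest CC differences.

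The members were also compared without the 2 arrays that stood apart in muscle and nerve markers, arthritis 2 and triptolide 2, which leaves 2 arrays a group. The arrays kept still differed by group in these tissues. Skeletal muscle markers stood at -3.56 and -3.62 around their 6-array mean on arthritis 1 and 3 and at 0.84 and 1.48 on triptolide 1 and 3, and nerve and Schwann cell markers at 0.13 and 0.19 against -0.87 and -1.10. The part of either tissue in the differences was not tested. Without the 2 arrays 13 members had an unadjusted p under 0.05 in limma, against 11.2% of all tested probes, and 0 members passed the adjusted threshold, which 23 of all probes passed. The 13 were Cxcl1, Cxcl3, Cxcl9, Cxcl10, Cxcl11, Cx3cl1, Ccl7, Ccl12, Ccl19 and Xcl1, with higher levels under triptolide, and Ccl5, Ccl17 and Ccl22, with lower levels. The differences there were 2.27 (SE 0.33) for Cxcl9, 2.73 (SE 0.76) for Cxcl10, 3.63 (SE 0.91) for Cxcl11, 2.10 (SE 0.50) for Ccl19, 0.62 (SE 0.16) for Cx3cl1 and -0.78 (SE 0.24) for Ccl22. The lowest adjusted p among members was 0.238, for Cxcl9. Triptolide 2 is the lowest triptolide array for every member listed there with higher levels, the CXCR3 ligands among them. For Ccl17 and Ccl22 it is the highest triptolide array. Leaving it out moves these differences away from 0, so they follow in part from which array is left out. The count of 13 is therefore not a test. With slide as a block 4 members (Cxcl10, Cxcl11, Cx3cl1 and Ccl12) had an unadjusted p under 0.05, against 3.77% of all tested probes, and 0 passed the adjusted threshold.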

How the data were processed

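Total RNA of 6 synovial samples was hybridised to 1-colour Agilent rat arrays with Cy3. The deposited scanner files hold spot intensity, background-subtracted and detrended within each array and not normalized between arrays, per the file headers, which name Agilent Feature Extraction 10.7.3.1 and probe positions on rn4; the submitters' processing notes name version 9.1. Background and outlier flags were set by the same program. A deposited table of the authors gives log2 values for 167 rows; its columns correlated with log2 intensity of their own arrays at r above 0.999 across probes, had column medians of 4.94, 5.54 and 4.93 (arthritis) and 4.68, 4.74 and 4.84 (triptolide), and their centring stays unknown.

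From the intensity, control and outlier spots were left out, each array's log2 75th percentile was subtracted, and spots of a probe were averaged. Probes well above background on at least 3 of 6 arrays were tested (25777 of 41012), by lmFit and eBayes of limma 3.58.1 under R 4.3.3, adjusting over all of them. The brightest tested probe stands for a gene, and other tested probes of a member are given beside it. A gene dim on every array of a group has only a lower bound on its fold, from the bright group's mean against, per array, whichever is larger of that array's lowest signal well above background and the probe's own signal. The script was tested on simulated data. All members are named; those with the 8 smallest unadjusted p, and any whose groups do not overlap, are given in full, with up to 3 genes of each pathway list by smallest p, except genes that are not reported here. Members, lists and the arrays left out together were chosen with earlier results of these data known. Promoters are from RefSeq (GRCr8), matched by symbol for 31 of 38 members; positions of probes stay on rn4. Whether probes lie in coding sequence was not analysed here. Marker lists of B and plasma cells, mast cells, adipocytes and erythroid cells were also read, with differences of their mean of -0.03, -0.28, 0.22 and 0.67. Alternatives covered scaling, background correction, the dim filter, slide, replicate number, array weights, the probe for a gene and arrays left out.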

Additional observations from a re-analysis of the deposited data

How the results depend on the processing

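Across all settings tried, 0 members passed an adjusted p under 0.05 in limma, and 13 of 34 members kept the sign of their difference: Cxcl3, Cxcl10, Cxcl11, Cxcl12, Cxcl14, Cx3cl1, Ccl7, Ccl12, Ccl19 and Ccl21 above 0, and Ccl5, Ccl22 and Ccr6 below it. The cause of each change below was not tested, beyond the arrays that a setting leaves out or weighs down. The count of members at an unadjusted p under 0.05, 1 as reported, was 2 with normexp, 2 with normexp and quantile normalization, 4 with slide as a block, 7 within slide 1, 9 with array weights, 13 without arthritis 2 and triptolide 2, and 0 to 12 with 1 array left out (12 without triptolide 2). The labels do not say whether equal replicate numbers pair samples. Same-numbered deviations correlated at -0.165, -0.131 and 0.00083, and unlike-numbered ones at -0.102 to 0.157. Deviations were taken from the mean of each group's own few arrays, so these values cannot decide on pairing. With the replicate block 4 members (Cx3cl1, Ccl5, Ccl19 and Ccl21) and 1061 probes had an unadjusted p under 0.05 in limma. Over all tested probes that count, 830 as reported, was 1252 with normexp and quantile normalization, 1755 with no filter on dim probes, 1303 within slide 1, 2697 with array weights, 2883 without arthritis 2 and triptolide 2, where 23 passed the adjusted threshold, and 615 to 1659 with 1 array left out, the highest without triptolide 2.

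The sign of single members changed as follows. Under median scaling Ccl9 stood at -0.028 and Ccl11 at -0.025, and under quantile normalization Ccl11 at -0.030. With normexp Ccl9 stood at -0.012, Ccl11 at -0.10, Ccl27 at 0.088, Ccr2 at -0.047 and Cx3cr1 at 0.13, and with quantile normalization added they stood at -0.025, -0.033, 0.094, -0.048 and 0.19. Within slide 1, or with slide as a block, where triptolide 1 is the lone treated array and is assumed to vary like the others, Cxcl2 stood at 0.32, Ccl24 at 0.11, Cxcr3 at 0.67 and Cx3cr1 at 0.87. With array weights Cxcl2 stood at 0.11, Ccl6 at 0.15, Ccl20 at -0.10, Cxcr3 at 0.11 and Cx3cr1 at 0.18. Without arthritis 2 and triptolide 2, Cxcl2 stood at 0.11, Ccl6 at 0.024, Ccl9 at -0.063, Ccl20 at -0.046, Pf4 at -0.040, Cxcr3 at 0.24 and Cx3cr1 at 0.32.

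With each array left out in turn, the differences of the members whose sign changed ranged from -0.058 to 0.75 for Cxcl1, -0.38 to 0.35 for Cxcl2, -0.33 to 2.05 for Cxcl9, -0.26 to 0.90 for Cxcl13, -0.27 to 0.74 for Ccl2, -0.19 to 0.46 for Ccl3, -0.13 to 0.41 for Ccl4. They ranged from -0.26 to 0.14 for Ccl6, -0.38 to 0.32 for Ccl9, -0.25 to 0.45 for Ccl11, -0.43 to 0.10 for Ccl17, -0.17 to 0.14 for Ccl27, -0.064 to 1.04 for Xcl1, and from -0.20 to 0.39 for Pf4, -0.14 to 0.25 for Ccr1, -0.080 to 0.23 for Ccr2, -0.59 to 0.67 for Cxcr3, -0.22 to 0.50 for Cxcr4, -0.46 to 0.76 for Cx3cr1.

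Leaving out 1 array moved Cxcl9, Cxcl10 and Cxcl11 most. With 3 arrays a group and SDs above 1 for 12 members with triptolide, differences of the size seen could not be told from the spread, and Ccl20 and Ccr6 lay close to background.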
